A study of Mus musculus with 8 samples.

Results

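Bone morphogenetic protein (BMP) ligands and their antagonists were followed on 8 arrays of bone marrow stromal cells of the mouse, an adherent population able to turn into bone, cartilage or fat cells. The genes were chosen by name: the ligands Bmp2, Bmp4, Bmp5, Bmp6 and Bmp7, the secreted BMP-binding proteins Grem1, Nog, Chrd and Bmper, and the BMP target Id1. These were 10 of the 19938 genes with a probe set of their own, and each of them had 1 such probe set. The choice was made with earlier results of these data known.

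The cells came from the femurs and tibiae of C57BL/6 mice aged 6 to 8 weeks and were cultured on Skelite, a calcium phosphate scaffold. The groups combined 4 conditions with growth medium or osteoinductive medium, with 1 array for each combination. The conditions were microgravity in flight, a 1g centrifuge in the same flight incubator, ground-held incubation units, and laboratory dishes. The 4 flight arrays (microgravity and centrifuge) came from automated hardware, the ground arrays from units operated by hand, and the laboratory arrays from multi-well dishes. The labels name no component of the osteoinductive medium and say that cytokines were never added to the marrow cultures. They also leave unsaid how many animals or cultures each array stands for, so p-values reflect array-to-array spread alone. That spread includes differences between conditions, or between media from condition to condition, and is otherwise possibly technical. Both centrifuge samples are tagged as microgravity, and the description of the osteoinductive one names growth medium once. Their titles were followed.

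BMPs are secreted dimers that bind type I and type II serine/threonine kinase receptors. The receptors phosphorylate SMAD proteins, which enter the nucleus and switch on target genes such as Id1. BMPs take their name from their power to induce bone, and marrow stromal cells both make and answer them. Noggin, chordin and gremlin bind the ligands outside the cell and keep them from the receptors. Bmper, a relative of the fly protein crossveinless, binds BMPs and has been described as both a brake and a helper of their signal.

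Levels are log2 intensities, and each gene is compared with itself across arrays. A gene was marked as dim if its mean over the 8 arrays did not exceed 7.14, which 40 percent of probe sets lay at or under. Of the 10 genes, 9 lay above that mark, Bmp5 and Bmp6 just inside it with means of 7.19 each, and Bmp7 just outside it with 7.05. Bmp5 and Bmp6 exceeded 7.14 on the 4 flight arrays and on 0 of the 4 ground-based arrays (ground and laboratory). The array medians on the linear scale lay between 191.3 and 196.4 in flight and between 180.9 and 183.6 on the ground-based arrays. Array scale thus differed along with flight, and quantile normalization was among the alternative fits. Of 13 stromal markers measured 12 lay above the dim mark, Col1a2 and Col1a1 with means of 13.17 and 12.65, while Lepr, with a mean of 5.45, was dim. Arrays of such a culture cannot tell fewer cells of a type from less RNA per cell.

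Upstream sequences are shown for Bmp4, Bmp5 and Bmp6, ligands called higher in flight in the main fit, and for Bmper. The calls of Bmp4 and Bmp6 held in 4 and 8 of 14 alternative fits. Among the 10 genes Bmper differed most between media. RefSeq promoter entries matched 6 of the 10 genes (also Grem1 and Chrd), and Bmp2, Bmp7, Nog and Id1 had none. Each line gives the 250 bases before the annotated start, 5′ to 3′ on the gene's strand, in build GRCm38.p6. Capitals mark matches to the E-box CANNTG, the motif bound by the basic helix-loop-helix factors that Id proteins hold off DNA.
Bmp4 (chr14:46390670-46390919, - strand): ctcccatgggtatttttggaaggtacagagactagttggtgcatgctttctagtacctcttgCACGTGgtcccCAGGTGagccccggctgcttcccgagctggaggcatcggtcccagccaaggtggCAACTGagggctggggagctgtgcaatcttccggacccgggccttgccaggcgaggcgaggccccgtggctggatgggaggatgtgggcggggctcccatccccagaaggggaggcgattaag
Bmp5 (chr9:75775115-75775364, + strand): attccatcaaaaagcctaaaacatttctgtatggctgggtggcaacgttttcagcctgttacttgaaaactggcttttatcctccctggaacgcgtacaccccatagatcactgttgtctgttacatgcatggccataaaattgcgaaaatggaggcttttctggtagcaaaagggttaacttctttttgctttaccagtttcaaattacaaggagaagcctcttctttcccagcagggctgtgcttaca
Bmp6 (chr13:38345466-38345715, + strand): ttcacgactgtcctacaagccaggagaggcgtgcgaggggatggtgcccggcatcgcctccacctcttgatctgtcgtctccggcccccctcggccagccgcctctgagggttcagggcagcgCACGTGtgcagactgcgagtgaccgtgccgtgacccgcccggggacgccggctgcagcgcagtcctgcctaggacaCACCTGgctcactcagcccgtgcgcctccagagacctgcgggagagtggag
Bmper (chr9:23222826-23223075, + strand): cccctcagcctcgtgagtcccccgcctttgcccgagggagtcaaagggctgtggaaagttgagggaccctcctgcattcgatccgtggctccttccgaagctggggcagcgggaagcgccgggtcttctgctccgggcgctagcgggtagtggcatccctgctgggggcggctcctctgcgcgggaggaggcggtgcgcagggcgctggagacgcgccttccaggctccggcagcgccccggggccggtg
The Bmp4 window held E-box matches starting at -188, -177 and -123 from the start, and the Bmp6 window at -127 and -51. The windows of Bmp5 and Bmper held none, whereas 66.2% of 32851 promoter windows of this length held at least 1. On both strands the windows were also searched for GGCGCC, a GC-rich SMAD element found in 9.59% of windows, and for GTCTAGAC (0.167%). Further searches were for AGAACA (16.1%), only a part of the glucocorticoid receptor element, and for TGACG (17.8%), TATAAA (12.4%) and CCAAT (33.8%). Apart from the E-box, none of these motifs had a match in the 4 windows shown, and no motif contains another. GGCGCC occurred at -78 of Grem1 and at -203 of Chrd. The Bmp5 window had a GC content of 42.8% and 4 CpG sites, against 63.2% and 11 in Bmp4, 68.8% and 22 in Bmp6, and 71.6% and 24 in Bmper. A match describes the letters and is not a site in use.

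The flight comparison asked how cells that had flown differed from those that had not, with medium as a covariate. Only the flight arrays came from automated hardware, so flight and automation cannot be told apart. Of the 5 ligands 4 were higher in flight, Bmp5 by 1.61-fold and Bmp4, Bmp6 and Bmp7 by 1.22-fold to 1.28-fold. None of the 4 antagonists passed the threshold, nor did Bmp2 or Id1. In limma's fit, adjusted by Benjamini-Hochberg over all genes, 27.8% of all genes passed this comparison, with 11.6% higher and 16.2% lower in flight. The median change of the 10 genes was 0.13 on the log2 scale, and that of all genes was -0.02.

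Bmp5, a ligand known from skeletal patterning, had the largest difference among the 10 genes. In growth medium it was at 7.74 in microgravity, 7.26 on the centrifuge, 6.86 on the ground and 6.86 in the laboratory. In osteoinductive medium the corresponding levels were 7.93, 7.22, 6.86 and 6.81. Every flight array thus lay above every ground-based array, and within flight both microgravity arrays lay above both centrifuge arrays. The 4 ground-based arrays were nearly alike, at 6.85 ± 0.02 (SD, n = 4), against 7.54 ± 0.35 (SD, n = 4) in flight. Bmp5 rose in flight by 0.69 on the log2 scale (SE 0.14, adjusted p = 0.00383). It passed in all 14 alternative fits that included it, with changes from 0.54 to 0.82 and adjusted p up to 0.0186. Among these was the filter at the dim mark of 7.14, which Bmp5 cleared only through its flight arrays. All 4 ground-based arrays lay below that mark, so passing this filter is no separate check of the rise. By medium, the fit of 4 groups (flight or ground-based by medium) gave 0.74 in osteoinductive medium (SE 0.21, adjusted p = 0.0379) and 0.64 in growth medium (adjusted p = 0.0737). In these, 13.0% and 10.6% of all genes passed. The osteoinductive call held in 6 of 13 alternative fits, the filter at the dim mark again among them. It was lost after quantile normalization and with 32 added before log2. The osteoinductive value was 0.38 without the osteoinductive microgravity array (adjusted p = 0.267). It also lost its call without the osteoinductive ground or laboratory array (0.76 and 0.71, adjusted p = 0.143 and 0.172) and without the growth ground or laboratory array (0.74, adjusted p = 0.0534 for each). The growth value was 0.40 without the growth microgravity array (adjusted p = 0.464). It was called without the growth centrifuge array (0.88, adjusted p = 0.0223) and without either osteoinductive flight array (0.64, adjusted p = 0.0231 for each), in 3 of 13 alternative fits.

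**Figure D1:**
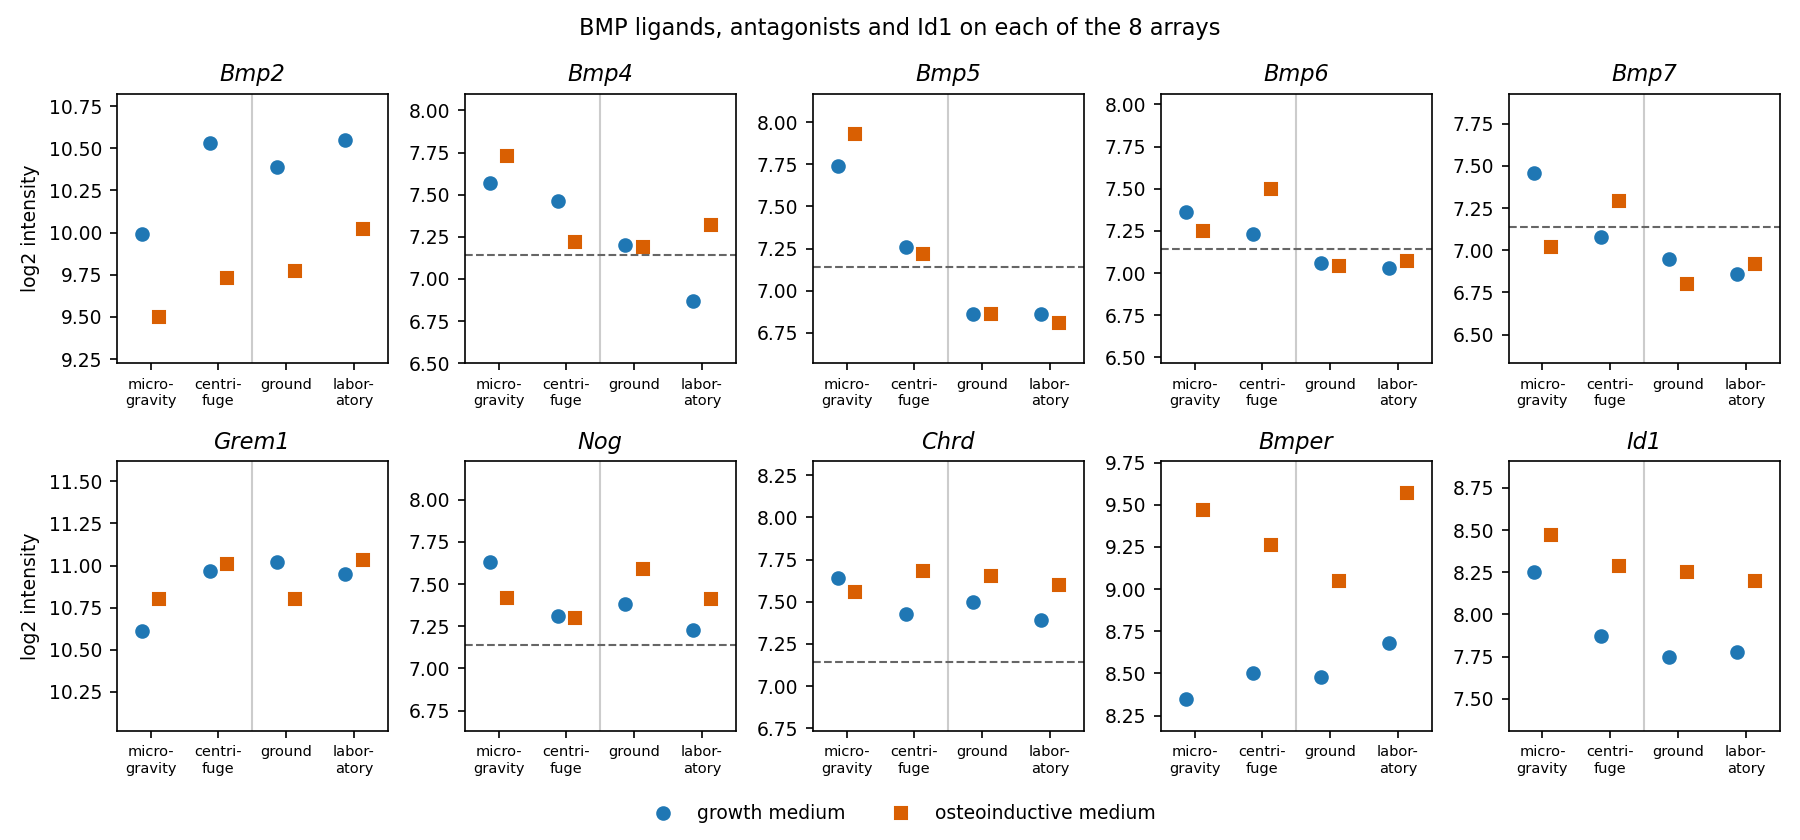
Log2 intensity (vertical axis, each panel spanning the same width around its own gene) of the 10 genes in the 4 conditions, with circles for growth medium and squares for osteoinductive medium, 1 array each. The dashed line is the dim mark of 7.14, and the grey line parts flight (left) from ground-based arrays (right). Bmp5 is higher on all flight arrays, Bmper parts by medium, and Bmp2 is lower in osteoinductive medium within each of the 4 conditions.

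Bmp6 and Bmp7, the nearest relatives of Bmp5, had smaller differences that lay close to the dim mark. Bmp6 read 7.36 and 7.23 in microgravity and on the centrifuge in growth medium and 7.25 and 7.50 in osteoinductive medium. On the ground-based arrays it read from 7.03 to 7.07, below all flight arrays. Bmp6 rose in flight by 0.28 (SE 0.08, adjusted p = 0.0236). Bmp7 read 7.46 and 7.08 in growth medium and 7.02 and 7.29 in osteoinductive medium in flight, and from 6.80 to 6.95 without flight. It too lay higher on every flight array, and rose by 0.33 (SE 0.10, adjusted p = 0.0296). Among the 10 genes, Bmp5, Bmp6 and Bmp7 had every flight array above every ground-based array, a pattern held by 11.8% of all genes.

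Bmp4, a ligand that drives bone and cartilage formation, was higher in flight with overlapping arrays. In flight it read 7.57 and 7.46 in growth medium and 7.73 and 7.22 in osteoinductive medium, microgravity first. On the ground and in the laboratory it read 7.20 and 6.87 in growth medium and 7.19 and 7.32 in osteoinductive medium. The osteoinductive laboratory array thus exceeded the osteoinductive centrifuge array. Bmp4 rose in flight by 0.35 (SE 0.12, adjusted p = 0.0478).

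The calls of Bmp4, Bmp6 and Bmp7 depended on single arrays and on scaling. After quantile normalization none of them passed, with changes of 0.25, 0.18 and 0.23 (adjusted p = 0.161, 0.119 and 0.104). Of 8 fits that left out 1 array, Bmp4 passed in 1, that without the osteoinductive centrifuge array (0.48, adjusted p = 0.00673), and read 0.26 to 0.40 in the other fits (adjusted p = 0.0591 to 0.17). Bmp6 passed without the growth centrifuge, growth ground or osteoinductive microgravity array, and read 0.23 to 0.29 in the other 5 (adjusted p = 0.0535 to 0.0717). Bmp7 passed without the growth centrifuge, osteoinductive laboratory or osteoinductive microgravity array, and read 0.25 to 0.34 in the other 5 (adjusted p = 0.0587 to 0.0937).

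The sign of a flight difference moved with intensity across the arrays. The 2576 genes whose mean lay within 0.25 of that of Bmp5 had a median flight change of 0.09, with 21.4% higher and 4.74% lower. The 2576 genes around Bmp6 gave the same values, and those around Bmp7 and Bmp4 had medians of 0.08 and 0.09, with 19% and 21.3% higher. Around Bmp2, 886 genes had a median of -0.21, with 2.71% higher and 31.2% lower. The part of intensity in the ligands' differences was not tested.

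Markers of other cell types also moved with flight. The summed intensity of 8 neuronal markers was 8278 to 12032 in flight and 2547 to 3593 without flight, that of 8 skeletal muscle markers 4370 to 5390 and 1333 to 1720. The sums were 3018 to 3515 and 2556 to 2922 for 8 chondrocyte markers, and 848 to 1096 and 632 to 655 for 5 osteoblast markers. For 7 endothelial markers they were 1155 to 2268 and 871 to 904, and for 8 lung epithelium markers 1797 to 11784 and 933 to 1050, both sums being highest on the osteoinductive microgravity array. Sums of 8 macrophage and 7 adipocyte markers overlapped between flight and ground-based arrays. In flight, 8 neuronal, 7 endothelial, 5 muscle, 5 chondrocyte, 4 lung, 3 osteoblast and 2 adipocyte markers rose, and 1 chondrocyte and 1 macrophage marker fell. Of the 13 stromal markers 2 rose and 5 fell. Among all genes 11.6% were called higher and 16.2% lower. The osteoblast list held 8 genes, of which 5 were measured. The dim markers were Elavl4, Myog, Tek, Emcn, Matn3, Hapln1, Scgb1a1, Epcam, Sp7, Phex, Pparg, Adipoq, Lpl, Ptprc, Adgre1 and Itgam. Bmp5 was also highest on the osteoinductive microgravity array, and without that array its flight change was 0.54 (adjusted p = 0.00841). The part of these markers in the ligands' differences was not tested.

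**Figure D2:**
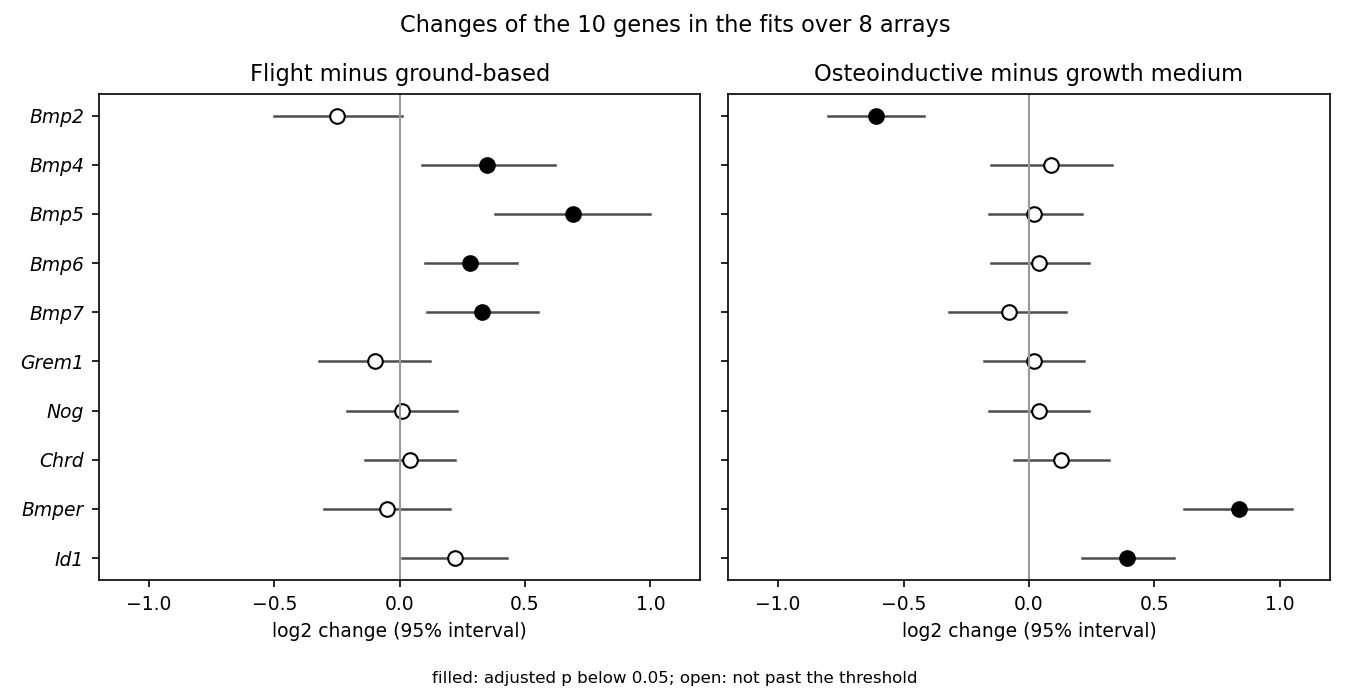
Log2 change (horizontal axis) of the 10 genes in flight minus ground-based arrays (left) and in osteoinductive minus growth medium (right), with 95% intervals from limma's fits over 8 arrays. Filled points have an adjusted p below 0.05. Bmp4, Bmp5, Bmp6 and Bmp7 are filled on the left, and Bmp2, Bmper and Id1 on the right.

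The comparison of media asked how osteoinductive medium differed from growth medium, with condition as a covariate. A different set of the 10 genes passed: Bmp2 was lower, and Bmper and Id1 were higher. Across all genes 8.45% passed, with 4.18% higher and 4.27% lower, and the median change of the 10 genes was 0.04 against 0.01 for all genes. Bmp4, Bmp5, Bmp6 and Bmp7 did not pass, with changes from -0.08 to 0.09 and intervals (95%) that lay within -0.32 and 0.33. Among markers of other cell types 4 of 8 neuronal ones and 1 macrophage marker fell, and 1 adipocyte, 1 chondrocyte and 1 skeletal muscle marker rose. The summed intensity of each of the 9 marker lists overlapped between media, with 3228 to 12032 in growth and 2547 to 8688 in osteoinductive medium for the neuronal list. Their part in the differences between media was not tested.

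Bmp2, the osteogenic ligand used in bone repair, was lower in osteoinductive medium. In growth medium it read 9.99 in microgravity, 10.53 on the centrifuge, 10.39 on the ground and 10.55 in the laboratory. In osteoinductive medium it read 9.50, 9.73, 9.77 and 10.02 in the same order. The osteoinductive array was the lower one in each of the 4 conditions, by 0.49 to 0.80, as for 15.3% of all genes. The ranges of the media overlapped, because the growth microgravity array lay just below the osteoinductive laboratory array. Bmp2 fell by 0.61 (SE 0.09, adjusted p = 0.00124), to a level 1.53-fold lower. It passed in all 15 alternative fits, with changes from -0.65 to -0.54 and adjusted p up to 0.0125.

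In flight Bmp2 was not called. Its change of -0.25 (SE 0.12, adjusted p = 0.145) had an interval from -0.50 to 0.01, and lay near the median of -0.21 for genes of like intensity. It was -0.36 without the growth centrifuge array (adjusted p = 0.0172) and -0.09 after quantile normalization (adjusted p = 0.533). Microgravity was lower than the centrifuge by 0.54 in growth medium and by 0.22 in osteoinductive medium, values with 1 array on each side.

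Bmper showed the largest medium difference among the 10 genes. In growth medium it read 8.35 in microgravity, 8.50 on the centrifuge, 8.48 on the ground and 8.68 in the laboratory. In osteoinductive medium it read 9.47, 9.26, 9.05 and 9.57. The media did not overlap, and every osteoinductive array exceeded every growth array, as for 5.17% of all genes. Bmper rose by 0.84 (SE 0.10, adjusted p = 0.000304), a 1.79-fold difference, and passed in all 15 alternative fits with changes from 0.74 to 0.93. Within flight arrays the difference was 0.94 (SE 0.17, adjusted p = 0.00702), and within ground-based arrays 0.74 (SE 0.17, adjusted p = 0.0701), where 5.74% and 1.07% of all genes passed. The flight-array value was not called without the osteoinductive microgravity array (0.84, adjusted p = 0.0553). The ground-based value was called in 4 of 14 alternative fits: both filters on dim genes (adjusted p = 0.049 and 0.0447), the intensity trend with robust prior (adjusted p = 0.0416), and the fit without the osteoinductive ground array (0.99, adjusted p = 0.0183). It was 0.48 without the osteoinductive laboratory array (adjusted p = 0.935). Its flight change was -0.05, with an interval from -0.30 to 0.20 (adjusted p = 0.79).

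The other antagonists showed no call in any comparison. Grem1, the gremlin that binds BMP2 and BMP4 and is made by marrow stroma, read from 10.61 to 11.03 on all 8 arrays, with the growth microgravity array lowest. Its interval was -0.32 to 0.12 for flight and -0.18 to 0.22 for medium. Nog, which encodes noggin, read from 7.23 to 7.63, with the growth laboratory array lowest and the growth microgravity array highest. Its intervals were -0.21 to 0.23 for flight and -0.16 to 0.24 for medium. Chrd, which encodes chordin, read from 7.39 to 7.68, with intervals of -0.14 to 0.22 and -0.06 to 0.32. Changes beyond these bounds were thus not seen, but smaller ones cannot be told from the spread of the arrays.

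Id1, the inhibitor of basic helix-loop-helix factors that BMP SMADs switch on, was higher in osteoinductive medium. It read 8.25, 7.87, 7.75 and 7.78 in growth medium and 8.47, 8.29, 8.25 and 8.20 in osteoinductive medium, in the order microgravity, centrifuge, ground and laboratory. The osteoinductive array was higher in each condition, by 0.23 to 0.49, as for 14.6% of all genes. The growth microgravity array reached the osteoinductive range, and the other 3 growth arrays lay below it. Id1 rose by 0.39 (SE 0.08, adjusted p = 0.0143), a 1.31-fold difference. It passed without either microgravity array (0.45, adjusted p = 0.0209). Leaving out a centrifuge, a ground or a laboratory array of either medium gave 0.38, 0.36 and 0.38 and no call (adjusted p = 0.0606, 0.0712 and 0.0666). Across the 8 arrays Id1 and Bmp2 ran opposite, with a Pearson correlation of -0.958, given as a description because the points share the same media and conditions. In flight Id1 changed by 0.22 (SE 0.10, adjusted p = 0.107), and by 0.28 without the growth centrifuge array (adjusted p = 0.0352).

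**Figure D3:**
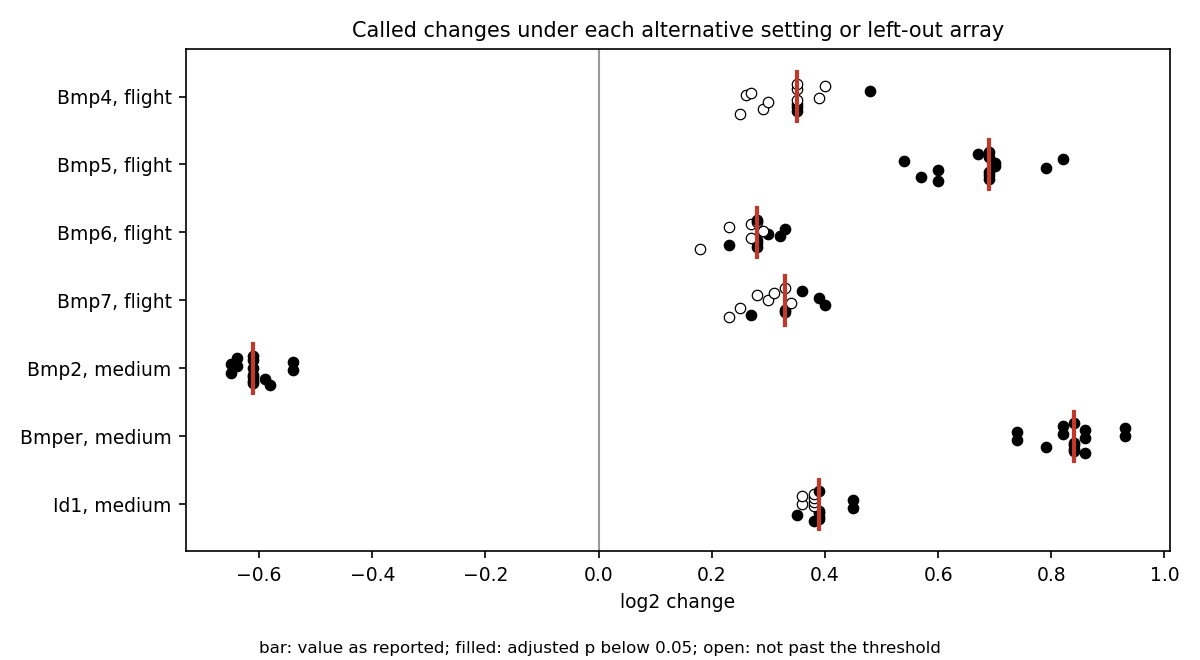
Log2 change (horizontal axis) of the 7 called differences under each alternative setting or left-out array, with a bar at the value reported and filled points where adjusted p lay below 0.05. Bmp5 in flight and Bmp2 and Bmper between media are filled throughout, while points of Bmp4, Bmp6, Bmp7 and Id1 include open ones.

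Microgravity was compared with the centrifuge to set gravity apart from flight, within the same hardware. None of the 10 genes passed in limma, and 0% of all genes did, with 2120 genes (10.6%) and 4 of the 10 at an unadjusted p under 0.05. A fit of the 4 arrays of these conditions called 108 genes, the fit without the growth microgravity array 95 and that without the osteoinductive microgravity array 5, none of them among the 10. These fits left fewer residual degrees of freedom than the 3 of the main fit, so their counts rest on a weaker estimate of the spread. In the main fit, the 4 genes at an unadjusted p under 0.05 included Bmp5 (0.59, SE 0.12, adjusted p = 0.243) and Bmp2 (-0.38, SE 0.12, adjusted p = 0.346). The others were Grem1 (-0.28, SE 0.13, adjusted p = 0.469) and Id1 (0.28, SE 0.12, adjusted p = 0.443). For Bmp5 microgravity exceeded the centrifuge by 0.48 in growth and by 0.71 in osteoinductive medium, and for Id1 by 0.38 and 0.19. Bmp6 and Bmp7 turned sign between media, at 0.13 and 0.38 in growth medium and -0.25 and -0.27 in osteoinductive medium, with 1 array on each side.

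The ground units, which were operated by hand, were compared with culture dishes at 1g. The automated hardware of the flight arrays is not part of this comparison. None of the 10 genes passed in limma, and 0% of all genes did, with 480 genes (2.41%) and 1 of the 10 at an unadjusted p under 0.05. The 1 of the 10 was Bmper, lower in the units by 0.20 in growth medium and by 0.52 in osteoinductive medium (-0.36, SE 0.14, adjusted p = 1), a difference of -0.53 to -0.19 with 1 array left out. Without the growth laboratory array 1 gene passed, which was none of the 10. Bmp5 and Bmp6 differed by 0.02 and 0.00, with intervals of -0.24 to 0.28 and -0.28 to 0.28.

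Whether flight acted differently in the 2 media was tested by an interaction term. None of the 10 genes passed in limma, 0% of all genes did, and 842 genes (4.22%) and 0 of the 10 had an unadjusted p under 0.05. Without the osteoinductive centrifuge array 27 genes passed, none of them among the 10. Estimates ran from -0.30 for Nog to 0.21 for Bmper. The interval for Bmp5 was -0.55 to 0.74, which includes a difference between media as large as its flight change.

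The rest of the pathway was described from lists of 65 other measured genes, some in more than 1 list. In flight 13 of them rose and 4 fell, with a median of 0.06, against 11.6% and 16.2% of all genes. Between media 2 rose and 1 fell, with a median of 0.04, against 4.18% and 4.27% of all genes. Among 10 other BMP and GDF ligands Gdf10 rose in flight by 0.62 (SE 0.11, adjusted p = 0.00156) and none changed between media, with a median flight change of 0.15. Gdf10 read 8.62, 8.32, 8.42 and 8.63 on the flight arrays and 7.58 to 8.04 on the others. For 11.8% of all genes every flight array likewise lay above every ground-based array.

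Of 18 other extracellular modulators 2 rose and 1 fell in flight, with a median of 0.09, against 11.6% and 16.2% of all genes. The chordin-like gene Chrdl1 and Vwc2, a secreted BMP antagonist of the brain, rose by 0.34 and 0.36, and both were dim. Chrdl1 passed in 8 of 13 alternative fits. Tll1, a tolloid-like protease that cleaves chordin, fell by 0.47 (SE 0.10, adjusted p = 0.0055). Between media Htra1, a secreted serine protease, rose by 0.39 (adjusted p = 0.0145), and by 0.33 without either ground array (adjusted p = 0.0846).

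Of 14 receptors and co-receptors 3 rose and 1 fell in flight, with a median of 0.04, against 11.6% and 16.2% of all genes. Endoglin, Eng, rose by 0.80 (SE 0.16, adjusted p = 0.00368), and by 0.59 without the osteoinductive microgravity array (adjusted p = 0.00287), where it and the endothelial markers were highest. The type II receptor Acvr2a rose by 0.33 (adjusted p = 0.0212) and the type I receptor Bmpr1b, which was dim, by 0.29 (adjusted p = 0.0187). The type I receptor Acvr1 fell by 0.27 (adjusted p = 0.0416), and read -0.14 after quantile normalization (adjusted p = 0.189). Acvr2a, Bmpr1b and Acvr1 passed in 11 of 15, 11 of 13 and 6 of 15 alternative fits. Between media the largest called change of a listed pathway gene was that of Tgfbr3, betaglycan, a co-receptor that also binds BMPs. It read 8.64 to 9.15 in growth medium and 9.94 to 10.37 in osteoinductive medium, with every osteoinductive array higher, as for 5.17% of all genes. Tgfbr3 rose by 1.31 (SE 0.13, adjusted p = 8.51e-05), a 2.47-fold difference.

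Of 12 SMADs and regulators 2 rose and 2 fell in flight, with a median of -0.13, against 11.6% and 16.2% of all genes. Between media none of the 12 was called. Tob1, a repressor of BMP signalling in bone cells, rose by 0.43 (adjusted p = 0.0101), and the inhibitory SMAD gene Smad6 by 0.27 (adjusted p = 0.0284). The ubiquitin ligase gene Smurf2 fell by 0.41 (adjusted p = 0.0185) and Pmepa1, an inhibitor of SMAD signalling, by 0.36 (adjusted p = 0.0354). After quantile normalization Smad6, Smurf2 and Pmepa1 read 0.19, -0.27 and -0.20 without a call (adjusted p = 0.11, 0.0609 and 0.165). They passed in 7 of 14, 9 of 15 and 7 of 15 alternative fits, and Tob1 in 14 of 15.

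Of 17 BMP target genes other than Id1, which include Nog and Grem1, 6 rose in flight and none fell, with a median of 0.11. Among all genes 11.6% rose and 16.2% fell, but these shares moved with intensity. Around the level of Bmp5 21.4% rose and 4.74% fell, and around that of Id1 17.2% and 16.9%. Targets that did not pass included Id3 (0.04), Smad7 (-0.10), Msx1 (-0.01), the dim Msx2 (-0.12) and Atoh8 (0.11). The 6 target genes were Dlx5 by 0.87, Id4 by 0.81, Id2 by 0.67, Hey1 by 0.58, Sp7 by 0.33 and Smad6. Dlx5 and Sp7 are transcription factors of osteoblasts, Sp7 being dim here, and Hey1 answers both Notch and BMP. Dlx5 read 9.14 on the growth microgravity array and at most 8.16 elsewhere, and its change without that array was 0.54 (adjusted p = 0.00323). It did not pass with an intensity trend and robust prior (adjusted p = 0.0665). Sp7 passed in 10 of 13 alternative fits, but not after quantile normalization (0.23, adjusted p = 0.0882) or without the growth or osteoinductive laboratory array (0.28 and 0.30, adjusted p = 0.075 and 0.0645). Between media Id2 fell by 0.46 (SE 0.10, adjusted p = 0.0176), while its relative Id1 rose. Without a centrifuge or a laboratory array Id2 read -0.37 and -0.41 without a call (adjusted p = 0.11 and 0.0723).

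**Figure D4:**
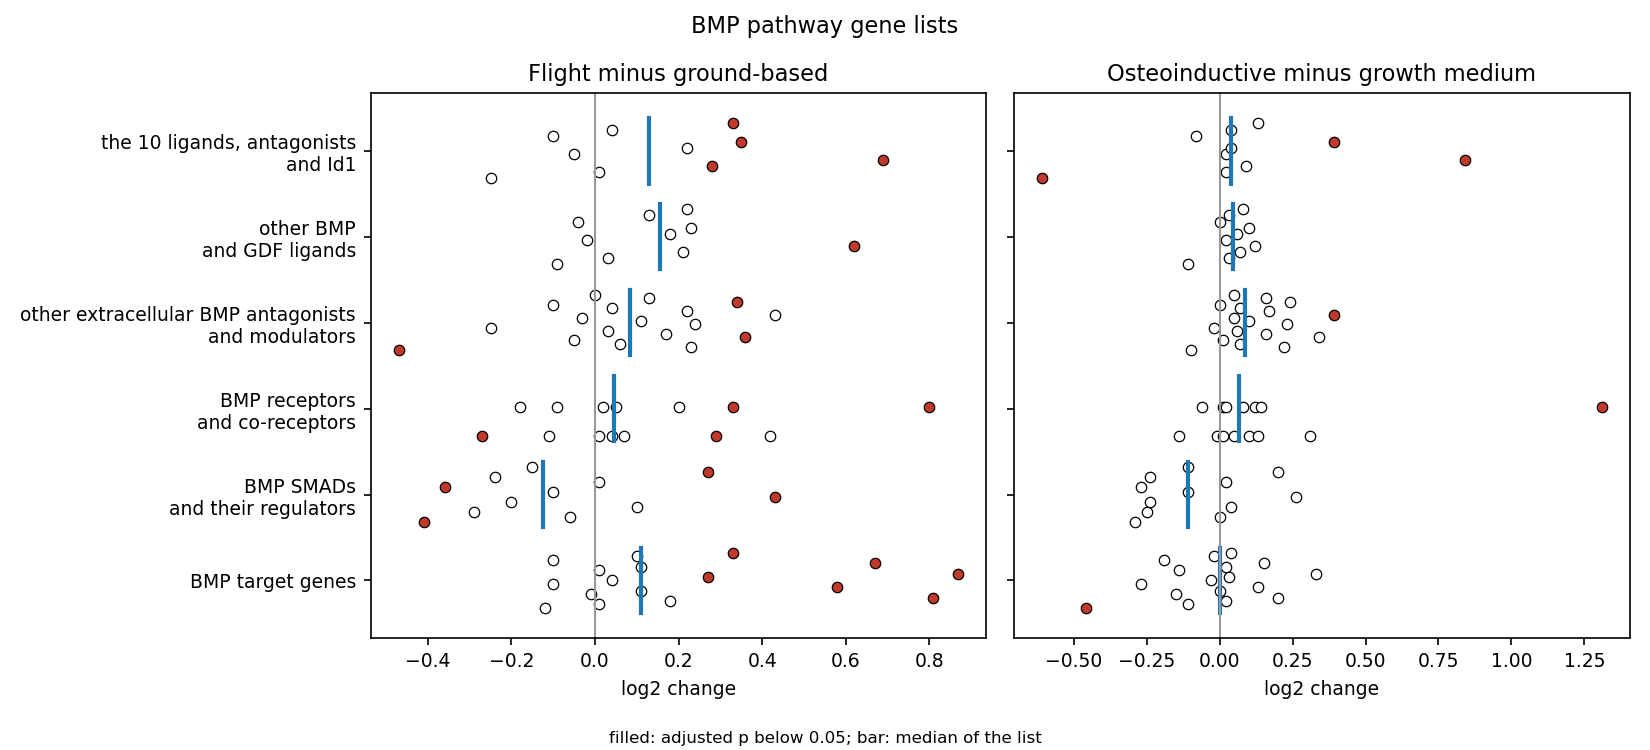
Log2 change (horizontal axis) of each measured gene in the 10 genes and in 5 other BMP pathway lists, for flight (left) and medium (right). Filled points have an adjusted p below 0.05, and bars are list medians, from -0.13 to 0.15 in flight. In flight, 6 of 17 target genes are filled and lie to the right. Of all genes 11.6% were called higher, and of genes near the level of Bmp5 21.4%.

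Genes whose pattern over the 8 arrays was most like that of each bright enough gene were found among 13204 others, by Pearson correlation. The 8 points share media and conditions, and no function is read from them. For Bmp5 they were Exoc3l, Stab1 and Tnnc1 (0.989 to 0.991), and for Bmper Slc10a6, Nox4 and Abca8a (0.988 to 0.992). For Bmp2 they were Cdk10, Dld and Nudt12 (0.985 to 0.992), and for Id1 Otop1, Slc43a2 and Spon1 (0.956 to 0.968). For Bmp4 they were Pfkfb4, Coro1c and Lair1 (0.94 to 0.958), and for Bmp6 Msx3, Efcc1 and Tbkbp1 (0.977 to 0.987). For Grem1 they were Ccnd2, Paqr3 and Slc38a2 (0.93 to 0.934), for Nog Cd37, Angel1 and Vsig10 (0.899 to 0.926), and for Chrd Acoxl, Cabp4 and Cdkn2d (0.942 to 0.97). Among the 10 genes themselves the closest patterns were those of Bmp6 and Bmp7 (0.88) and of Bmp4 and Bmp5 (0.84).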

How the data were processed

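Total RNA of 8 samples was amplified, labelled with biotin and hybridised, 1 array per sample. The authors deposited a linear intensity for each probe set. RMA and GCRMA appear in the submitters' processing notes, without versions or roles. Intensities were used as deposited after log2. Of 35557 probe sets 21789 were annotated to 1 gene. The brightest by mean stood for a gene, and all 19938 genes were tested, dim ones kept and marked. Differences came from limma 3.58.1 in R 4.3.3 (lmFit, eBayes), with 5 residual degrees of freedom for flight, 3 for medium and for single conditions, and 4 for the interaction. The conditions of a side, or the interaction of condition and medium, thus served as error. P-values are two-sided, adjusted by Benjamini-Hochberg over all genes, with a threshold of 0.05. Fits were tested on simulated data. The 10 genes, the lists and the tests were chosen with earlier results of these data known. All 10 genes are named, as are up to 5 called genes per list with the largest change, and the 3 most alike genes. Some listed genes were not analysed here. Alternatives were quantile normalization, filters at the 40th and 60th percentile, 32 added before log2, the mean of a gene's probe sets, an intensity trend with robust prior, other covariates or arrays in a fit, and leaving out each array. The number of arrays limits the precision.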

Additional observations from a re-analysis of the deposited data

Results flagged for a closer look

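The osteoinductive laboratory array had the lowest Bmp5 level of the 4 ground-based arrays, at 6.81, and stood apart because the other 3 were almost identical at 6.86. It was the 1 array that stood apart among 40 sets of 4 arrays (10 genes by flight, ground-based, growth and osteoinductive), where chance flags about 1 in 20 sets. Without it the flight change of Bmp5 was 0.67 (limma, adjusted p = 0.0153).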

How the results depend on the processing

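The 4 ligand calls in flight became 1 after quantile normalization, 0 with the filter at the 60th percentile, which removed all 4, and 2 without a term for medium. With 1 array left out the count of the 10 genes called was 1 to 5 in flight and 2 to 3 between media, and in the other 3 comparisons it was 0 under every alternative. Leaving out 1 array of a condition also takes its partner out of the comparison of media. Of the 705 recomputed values of the 10 genes in the 5 comparisons, most belonged to differences that were not called at the outset. A call was lost in 29 and gained in 2, and 17 values that were not called changed sign by more than their SE. The other 657 kept their side of the threshold without such a change of sign. All 29 losses fell on Bmp4 (10 of 14 fits), Bmp6 (6 of 14) and Bmp7 (7 of 13) in flight and on Id1 (6 of 15) between media. No called value changed sign. Over all genes the flight count of 5533 became 3602 without a term for medium, 3684 with the filter at the 60th percentile and 3706 without the osteoinductive laboratory array. The medium count of 1684 became 728 without a centrifuge array. The count of 0 in microgravity minus centrifuge became 95 without the growth microgravity array. With 1 array for each medium and condition, no fit could use replicates within a group, and intensities near the dim mark limit what the ligands' small differences show.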

Other observations

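Single arrays stood out for some other genes of the pathway, which were chosen after their values were seen. Fst, which encodes the activin and BMP binding protein follistatin, read 10.32 on the growth microgravity array and 8.49 to 9.78 on the other arrays, and its flight change of 0.43 did not pass (limma, SE 0.31, adjusted p = 0.331). Acvrl1, the type I receptor of endothelial cells, read 8.54 on the osteoinductive microgravity array and 7.31 to 7.71 elsewhere, and did not pass (0.42, SE 0.16, adjusted p = 0.0662). The BMP SMAD genes did not pass in flight, with Smad1 at -0.06, Smad5 at -0.15 and the dim Smad9 at 0.10, nor did the type II receptor Bmpr2, at 0.07.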
